A study of Mus musculus with 6 samples.

Results

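Eph receptors are membrane tyrosine kinases, and ephrins are the membrane-bound proteins on neighboring cells that engage them. EphA receptors mainly bind the lipid-anchored ephrin-A proteins and EphB receptors mainly bind the transmembrane ephrin-B proteins, and both the receptor cell and the ephrin cell can signal. In epithelia the system sets cell adhesion, cell sorting and tissue boundaries, and several of its members are known from carcinomas. RNA-seq values of 10 genes, chosen by symbol, were examined here out of 35027 genes in the table. They are 7 receptors (Epha1, Epha2, Epha4, Ephb2, Ephb3, Ephb4 and Ephb6) and 3 ephrins (Efna1, Efnb1 and Efnb2). They were taken by name, with earlier results of these data known, so their counts do not come from a choice blind to the data. The mouse has 12 further Eph receptor and ephrin genes in the table, which are given by range and count.

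Thyroid tumor cells of 2 mouse genotypes were compared. In both, a Cre transgene active in thyroid follicular cells removed a stop cassette from a Rosa26 allele that makes the reverse tetracycline transactivator rtTA and the red fluorescent protein Kate, so that doxycycline (dox) switched on a tetO transgene of YAP1 S127A, a form of the Hippo pathway effector that is retained in the nucleus. The first group, YAP, carried these alleles alone. The second, BRAFYAP, also carried Braf V600E, expressed from the endogenous locus after Cre. Dox chow was started at 4 weeks of age per the labels, and about 20000 Kate-positive cells were sorted for each library. There were 3 libraries in each group, numbered 1, 2 and 3 for YAP and 1, 2 and 6 for BRAFYAP. Per the labels, 3 tumors were combined for every YAP library whereas a single tumor was used for every BRAFYAP library, so genotype and pooling cannot be told apart, and the spread of the YAP libraries is that of pools. The libraries held 26.2 to 36.9 M estimated reads. The thyroid transcription factor Pax8 was detected in all 6 libraries, at 75.9 to 220 TPM, and 5 epithelial markers summed to 6884 to 20624 TPM in YAP and 8402 to 19612 TPM in BRAFYAP, but the thyroid differentiation genes Tg and Tshr were uneven. Tshr was at 0 in BRAFYAP 1 and BRAFYAP 2 and at 7.25 TPM in BRAFYAP 6. The 10 thyroid markers examined, Pax8 among them, summed to 201 to 420 TPM in YAP and 137 to 474 TPM in BRAFYAP. On scaled reads, defined below, 9 of them were tested, and 4 were higher and 5 lower in BRAFYAP by log2 fold change. Their median was -0.72, with -0.11 for all genes tested. Across genes BRAFYAP 6 had correlations to the other libraries of 0.73 to 0.88, against 0.80 to 0.98 among the other 5. Within its group it was at 0.88 and 0.87 with BRAFYAP 1 and BRAFYAP 2, which were at 0.98 with each other. Within YAP, libraries 1 and 2 were also at only 0.87. YAP 2 was at 0.94 both with YAP 3 and with BRAFYAP 1. Macrophage markers summed to 1484 to 3596 TPM in YAP and 814 to 1593 TPM in BRAFYAP, with 5 of 7 lower in every BRAFYAP library than in any YAP library, against 17% of the 16865 genes with a mean of at least 10 estimated reads, and the part of such cells in the results was not tested. A lower level in sorted cells can come from fewer cells of a type or from less RNA per cell, and these cannot be told apart.

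Levels are given as TPM per exonic length, recalculated from the estimated reads so that genes of different length can be compared. The order of the genes in YAP tumors was led by Efna1 (220 ± 43.3, SD, n = 3), the ephrin-A1 ligand, and Epha2 (72.0 ± 32.3, SD, n = 3), a receptor for it. Their ranges did not touch, and both lay above all other members. Efnb1, Ephb6, Ephb4, Epha4, Ephb3, Epha1 and Efnb2 followed, from 15.2 down to 1.67 TPM, and no neighbors in that order had separate ranges. Ephb2 was lowest, at 0.344 ± 0.107 TPM (SD, n = 3). In BRAFYAP tumors Efna1 (281 ± 61.2), Epha2 (180 ± 111) and Ephb6 (137 ± 23.1) were the leading members (SD, n = 3 each) with overlapping ranges between neighbors, and Ephb6 was separate from Efnb1 below it (49.5 ± 11.2). Ephb6 thus moved from the fourth to the third place, and Epha1 from the eighth to the sixth.

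**Figure D1:**
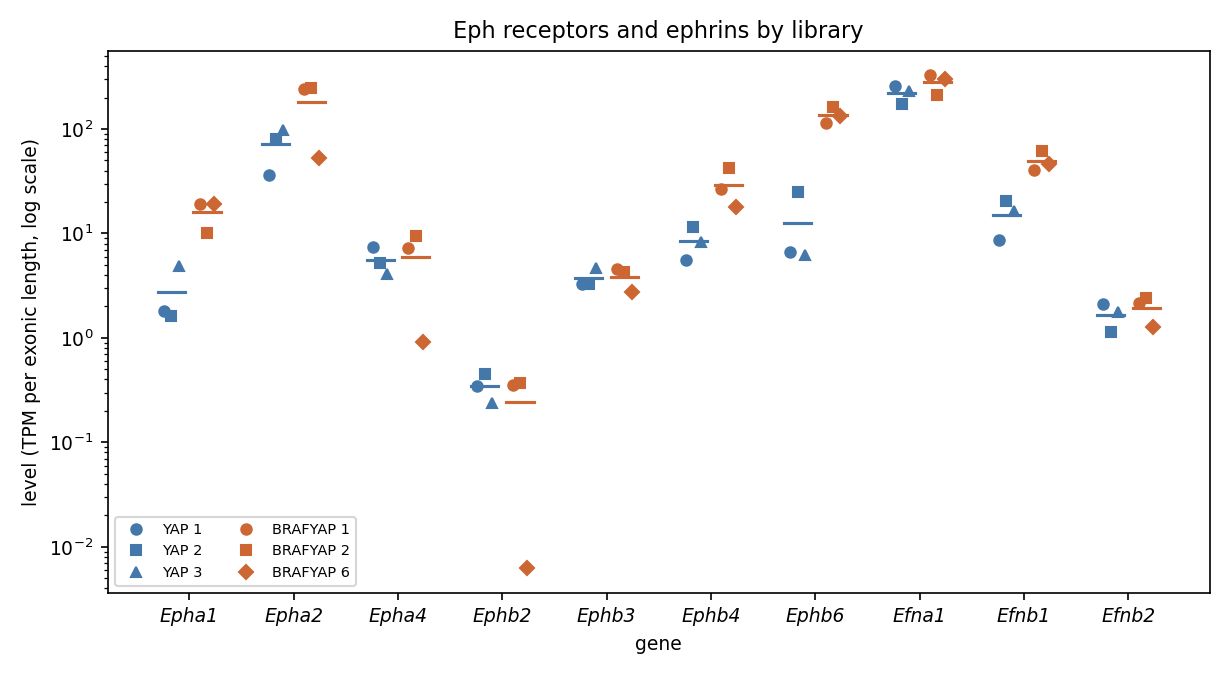
Level of each member in the 6 libraries, in TPM per exonic length on a log axis, with YAP in blue, BRAFYAP in orange and the group mean as a bar. The BRAFYAP libraries lie above every YAP library for Epha1, Ephb4, Ephb6 and Efnb1, and BRAFYAP 6 is the lowest library for Epha4, Ephb2 and Ephb3.

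BRAFYAP was compared with YAP by limma across all genes, two-sided, on log2(value + 1) of the deposited TPM for the 5 members with a mean of at least 1, and on log2 of scaled reads + 1, which undo the division by gene length, for all 10. A gene was called at a Benjamini-Hochberg adjusted p under 0.05. On deposited values 18 of 7319 genes were called, 0.246%. That count was 465 of 7276 without YAP 2, 20 without BRAFYAP 6 and 0 without any one of the other 4 libraries. Of the 5 members tested there 1 was called, Ephb6, which rose. At an unadjusted p under 0.05, 10.7% of all genes were higher in BRAFYAP and 3 of the 5 members were (Ephb4, Ephb6 and Efnb1). Ephb4 reached the minimum of 1 only through BRAFYAP, with a mean of 0.531 in YAP and 1.75 in BRAFYAP. Its place among the 5 was therefore not independent of its direction. On scaled reads 0 of 16865 genes were called by limma, 0%, and 0 of the 10 members. The count over all genes was 142 without BRAFYAP 6 and 3 without YAP 2, and 0 without any one of the other 4. At an unadjusted p under 0.05, 9.71% of genes were higher there, and 4 of 10 members were (Epha1, Ephb4, Ephb6 and Efnb1). Lower values at that threshold were found in 10.5% of genes and in 0 of the 10 members. In the same 4 genes every BRAFYAP library was above every YAP library, against 11.7% of all genes on scaled reads. On deposited values the groups did not overlap in this direction in 3 of 5 members, Ephb4 among them, and in 11.8% of genes. The median log2 fold change of the 10 members on scaled reads was 0.69, with -0.11 for all genes tested.

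**Figure D2:**
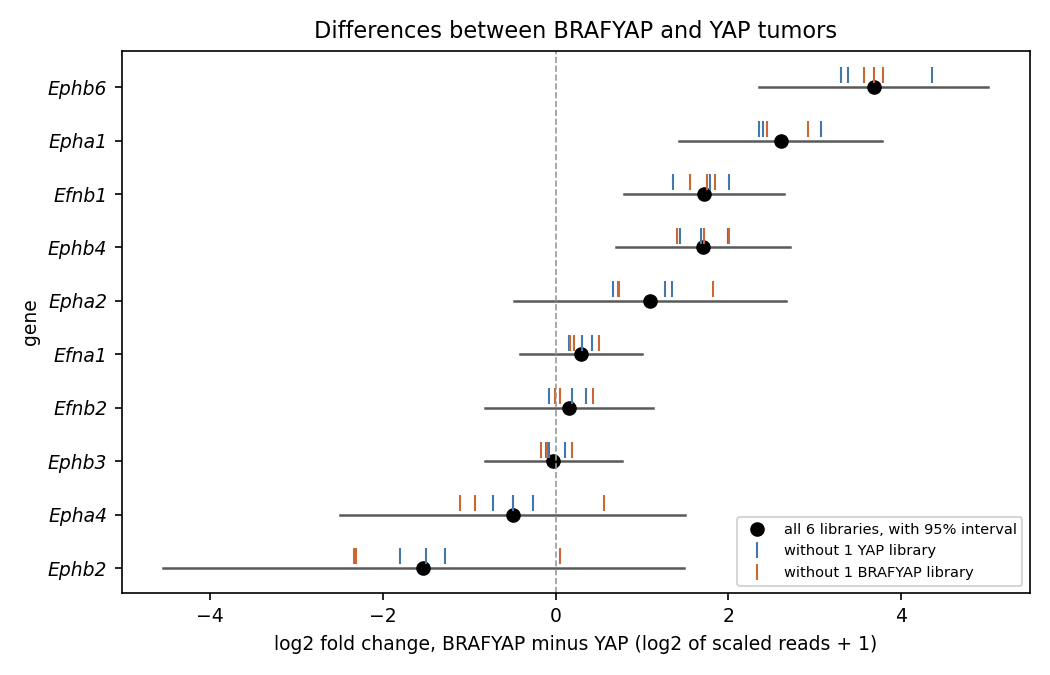
Log2 fold change of each member, BRAFYAP minus YAP, on log2 of scaled reads + 1 (black, with 95% interval), and the value without each library in turn (ticks, blue for YAP and orange for BRAFYAP). The intervals of Ephb6, Epha1, Efnb1 and Ephb4 lie above 0, and the tick of Ephb2 and of Epha4 farthest to the right is the value without BRAFYAP 6.

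Ephb6 encodes a receptor that lacks kinase activity and signals through partner receptors. It lies at chr6:41605482-41620509 on the plus strand (mm10, GENCODE M21, as for all positions). Its deposited values were 0.645, 2.51 and 0.578 in YAP 1, 2 and 3 and 10.8, 14.7 and 12.6 in BRAFYAP 1, 2 and 6. These stand for 284, 929 and 254 estimated reads against 4398, 8484 and 6431. The groups were far apart, with YAP 2 the highest of its group, and the BRAFYAP mean was 10.2 times the YAP mean. The log2 fold change of Ephb6 was 2.70 ± 0.35 (SE), with a 95% interval of 1.87 to 3.53 and a limma adjusted p of 0.0468. On scaled reads it was 3.68 ± 0.57 (SE), with a limma adjusted p of 0.0665, so of the main fits only that on deposited values called it. On scaled reads it was called with quantile normalization, with array weights and without YAP 2. On deposited values the call was lost when any library except YAP 2 was left out. The adjusted p was 0.166 without YAP 1, 0.0986 without YAP 3, 0.138 without BRAFYAP 1, 0.218 without BRAFYAP 2 and 0.073 without BRAFYAP 6, with log2 fold changes of 2.50 to 2.81, and without YAP 2 it was 0.0219 at 3.08.

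Epha1 encodes an EphA receptor of epithelia and lies on the same chromosome, 738 kb beyond the end of Ephb6, at chr6:42358487-42373268 on the minus strand. It had 80, 63 and 204 estimated reads in YAP 1, 2 and 3 and 758, 554 and 950 in BRAFYAP 1, 2 and 6. The groups did not overlap, with YAP 3 above the other 2 YAP libraries. On scaled reads the log2 fold change of Epha1 was 2.61 ± 0.50 (SE), with a 95% interval of 1.43 to 3.78 and a limma adjusted p of 0.0872, above the threshold. The last 1727 bases of Epha1 lie over the end of Zyx, the gene of the focal adhesion protein zyxin, which is transcribed from the other strand. Zyx had 1543, 6038 and 3246 reads in YAP and 11338, 17709 and 7510 in BRAFYAP, with a log2 fold change of 1.63 ± 0.58 (SE) and an adjusted p of 0.189. The strand used in counting is not given in the sources used here, so reads of Zyx may be included in Epha1. Epha1 reads were 1.04 to 6.29% of Zyx reads in YAP and 3.13 to 12.6% in BRAFYAP, and the part of Zyx in the difference was not tested.

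Epha2 encodes the main EphA receptor of epithelial cells and was the most abundant receptor in 5 of the 6 libraries. It lies at chr4:141301240-141329384 on the plus strand. The deposited values of Epha2 were 2.32, 5.37 and 6.01 in YAP 1, 2 and 3 and 15.0, 14.9 and 3.26 in BRAFYAP 1, 2 and 6. BRAFYAP 1 and 2 were above every YAP library and BRAFYAP 6 was within the YAP range. The log2 fold change was 0.95 ± 0.58 (SE), with an interval of -0.41 to 2.31 and a limma adjusted p of 0.396. When 1 library was left out it was 0.62 to 1.59, with adjusted p of 0.128 to 0.714. It was lowest without YAP 1 and, at 0.63 and 0.64, low without BRAFYAP 1 and BRAFYAP 2, and it was highest without BRAFYAP 6.

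Epha4 binds both classes of ephrin and lies at chr1:77367185-77515088 on the minus strand. It had 682, 414 and 356 estimated reads in YAP 1, 2 and 3 and 596, 1073 and 93 in BRAFYAP 1, 2 and 6. BRAFYAP 2 was the highest and BRAFYAP 6 the lowest library, and the groups overlapped. On scaled reads the log2 fold change of Epha4 was -0.50 ± 0.85 (SE), with a limma adjusted p of 0.767. It turned to 0.56 without BRAFYAP 6.

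Ephb4 encodes a receptor for ephrin-B2 that marks venous endothelium and is also made in epithelial tumors. It lies at chr5:137350109-137378669 on the plus strand. It had 293, 530 and 408 estimated reads in YAP 1, 2 and 3 and 1263, 2772 and 1065 in BRAFYAP 1, 2 and 6. The groups did not overlap, with BRAFYAP 2 the highest. The log2 fold change of Ephb4 was 0.82 ± 0.24 (SE) on deposited values, with a 95% interval of 0.26 to 1.38 and a limma adjusted p of 0.132. On scaled reads it was 1.71 ± 0.43 (SE), with an adjusted p of 0.11. The 9 endothelial markers summed to 3.41, 2.61 and 53.2 TPM in BRAFYAP 1, 2 and 6 and to 7.65, 33.9 and 4.47 TPM in YAP 1, 2 and 3. The library with the highest endothelial sum in BRAFYAP, BRAFYAP 6, had the lowest Ephb4 level of its group, 18.1 TPM, and the library with the highest sum in YAP, YAP 2, had the highest Ephb4 level of its group, 11.6 TPM. The part of endothelial cells in the difference was not tested. The last 33 bases of Ephb4 overlap Zan, which had at most 5 reads in any library.

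Ephb2 and Ephb3, receptors that position cells in the intestinal crypt, were low and showed no difference beyond the spread between libraries. Ephb3 (chr16:21204755-21223305) had 216 to 331 estimated reads in YAP and 231 to 394 in BRAFYAP, and a log2 fold change on scaled reads of -0.03 ± 0.34 (SE), with an interval of -0.82 to 0.77. Ephb2 (chr4:136647539-136835988) had 49, 56 and 32 reads in YAP and 45, 65 and 1 in BRAFYAP 1, 2 and 6. BRAFYAP 6 alone was low, and the Ephb2 log2 fold change of -1.53 ± 1.28 (SE) became 0.06 without that library. Its 95% interval over all libraries was -4.55 to 1.48, so a large change of Ephb2 is not excluded. Differences of Ephb2 are limited by these small numbers of reads. The limma adjusted p was 0.974 for Ephb3 and 0.523 for Ephb2.

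Among the ephrins, Efnb1, which encodes the transmembrane ligand ephrin-B1, had the greatest difference. It lies at chrX:99136130-99148991 on the plus strand. The deposited values of Efnb1 were 0.889, 2.20 and 1.61 in YAP 1, 2 and 3 and 4.04, 6.05 and 4.62 in BRAFYAP 1, 2 and 6. The groups did not overlap and the ratio of the means was 3.13. The log2 fold change was 1.22 ± 0.27 (SE), with a 95% interval of 0.59 to 1.85 and a limma adjusted p of 0.0906, above the threshold. Without YAP 2, when 465 of 7276 genes were called, the adjusted p of Efnb1 was 0.0422 at a log2 fold change of 1.40, and without any other library it was 0.134 to 0.266.

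Efna1, the most abundant member, lies at chr3:89271733-89281142 on the minus strand. Its deposited values were 19.3, 13.4 and 16.4 in YAP 1, 2 and 3 and 23.6, 14.9 and 22.2 in BRAFYAP 1, 2 and 6. The groups overlapped, and the log2 fold change was 0.28 ± 0.28 (SE), with an interval of -0.38 to 0.94 and a limma adjusted p of 0.604. Efnb2, the gene of ephrin-B2, a ligand of arterial endothelium, lies at chr8:8617434-8661242 on the minus strand. It had 163, 76 and 131 estimated reads in YAP and 149, 231 and 110 in BRAFYAP, and these overlapped. The log2 fold change of Efnb2 on scaled reads was 0.16 ± 0.42 (SE), with an interval of -0.82 to 1.13 and a limma adjusted p of 0.853. The transcripts E230020D15Rik, Gm45073 and Gm45074 overlap Efnb2 on the same strand and may share its reads.

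The makeup of the whole receptor pool was described by adding all 14 Eph receptor genes of the table in each library. The pool was 62.2, 129 and 127 TPM in YAP 1, 2 and 3 and 416, 475 and 231 TPM in BRAFYAP 1, 2 and 6. Ephb6 made up 10.7, 19.4 and 4.94% of it in YAP and 27.7, 33.9 and 58.1% in BRAFYAP, and these shares did not overlap. Epha2 made up 58.2 to 77.6% in YAP and 58.2, 51.8 and 22.7% in BRAFYAP 1, 2 and 6. Ephb4 held 6.45 to 9.01% in YAP and 6.46 to 9.01% in BRAFYAP, so its share of the pool was in the same range although its level was higher. The 8 ephrin genes summed to 234 to 283 TPM in YAP and 371 to 446 TPM in BRAFYAP. Efna1 was the larger part of this ephrin pool in every library, 73.8 to 90.9% in YAP and 56.9 to 82.1% in BRAFYAP, and Efnb1 held 3.03 to 8.76% and 9.08 to 16.7%. These shares rest on the same values as the tests above and carry no test of their own.

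**Figure D3:**
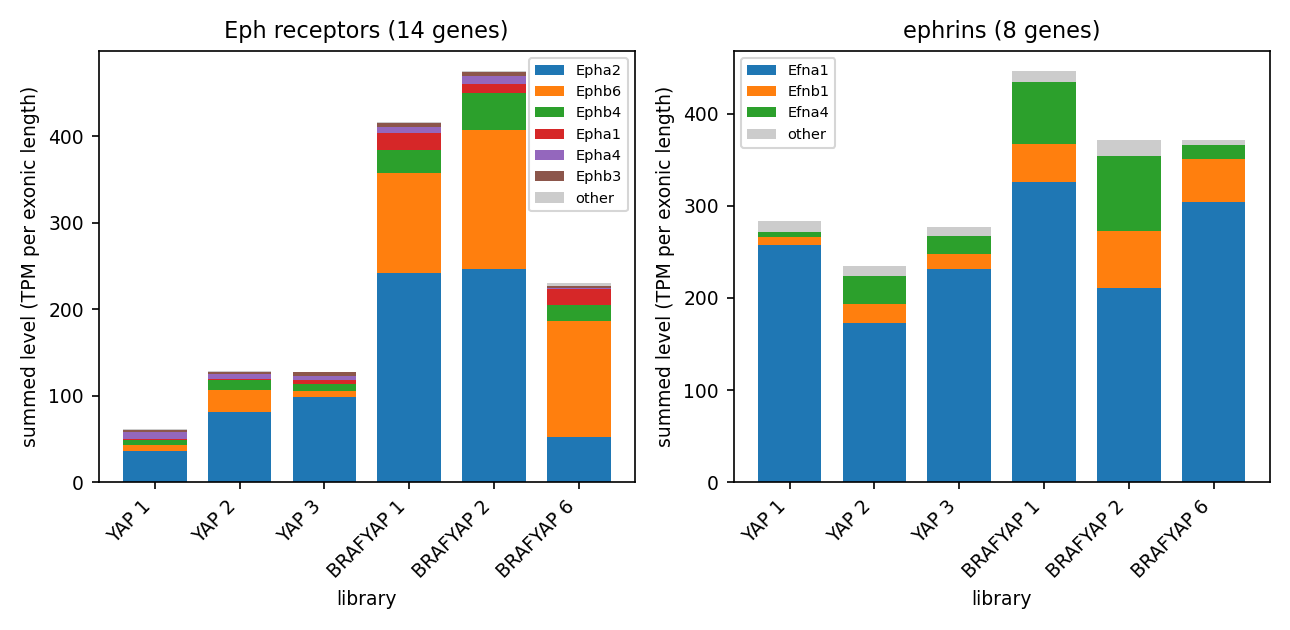
Summed level of the 14 Eph receptor genes (left) and the 8 ephrin genes (right) in each library, in TPM per exonic length, with the part of each main gene in color. The Ephb6 part is 4.94 to 19.4% of the receptor pool in YAP and 27.7 to 58.1% in BRAFYAP, and Epha2 is smaller in BRAFYAP 6 than in BRAFYAP 1 and 2.

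Of the 12 other Eph receptor and ephrin genes, 5 had a mean of at least 10 estimated reads. None of the 5 was called by limma, and 0 had an unadjusted p under 0.05. The smallest p values were those of Epha3 (log2 fold change 1.68 ± 0.74, SE, adjusted p = 0.258), Efna4 (1.49 ± 0.83, adjusted p = 0.351) and Efna3 (0.86 ± 0.67, adjusted p = 0.491) in the limma fit of scaled reads. Efna4, an ephrin-A ligand, was the most abundant of these genes, with 5.52, 30.9 and 19.5 TPM in YAP 1, 2 and 3 and 67.9, 80.3 and 15.3 TPM in BRAFYAP 1, 2 and 6. Its pattern was that of Epha2, with BRAFYAP 6 within the YAP range. Epha6 and Epha8 had 0 reads in all libraries.

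The promoters of the 4 members whose groups did not overlap are shown so that the positions of the motifs searched can be seen. The 250 bases before the RefSeq start (GRCm38.p6) are given 5′ to 3′ on the strand of the gene, with matches in capitals.
Ephb6, chr6:41605261-41605510, plus strand: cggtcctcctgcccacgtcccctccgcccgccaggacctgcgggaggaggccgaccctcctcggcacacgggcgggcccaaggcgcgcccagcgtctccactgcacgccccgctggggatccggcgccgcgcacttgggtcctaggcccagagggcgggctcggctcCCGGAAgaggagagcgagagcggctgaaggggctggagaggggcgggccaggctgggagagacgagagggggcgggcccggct
Epha1, chr6:42373269-42373518, minus strand: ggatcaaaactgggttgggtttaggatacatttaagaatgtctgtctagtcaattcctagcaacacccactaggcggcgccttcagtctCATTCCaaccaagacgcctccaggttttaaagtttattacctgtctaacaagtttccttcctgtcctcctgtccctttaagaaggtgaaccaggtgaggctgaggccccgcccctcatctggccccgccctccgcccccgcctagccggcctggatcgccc
Ephb4, chr5:137349859-137350108, plus strand: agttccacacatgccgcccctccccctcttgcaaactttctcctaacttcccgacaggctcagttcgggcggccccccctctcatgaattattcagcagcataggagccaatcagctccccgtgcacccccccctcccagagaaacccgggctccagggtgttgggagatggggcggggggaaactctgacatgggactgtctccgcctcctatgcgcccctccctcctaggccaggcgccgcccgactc
Efnb1, chrX:99135811-99136060, plus strand: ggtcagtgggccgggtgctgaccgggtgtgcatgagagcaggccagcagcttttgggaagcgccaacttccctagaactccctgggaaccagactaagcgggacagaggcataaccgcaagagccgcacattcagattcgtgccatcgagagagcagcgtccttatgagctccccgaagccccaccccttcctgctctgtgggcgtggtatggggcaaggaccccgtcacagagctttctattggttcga
Motifs were searched on both strands in these 250 bases of all 10 members and of 32851 promoters. TEAD (GGAATG) matched in 12.6% of all promoters and in 3 of 10 members, Epha1, Epha2 and Efnb2. ETS (CCGGAA) matched in 12.0% of all promoters and in Ephb2 and Ephb6. AP-1 (TGANTCA) matched in 6.75% of all promoters and in 0 of 10 members. The match of Ephb6 begins 83 bases before the start and that of Epha1 161 bases before it. A match is a description of the letters, and no binding was measured.

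The neighborhood of Ephb6 was examined next, because Ephb6 lies beside the constant part of the T cell receptor beta locus. Of 12 neighboring genes in the table whose start lies within 200 kb, 4 had a mean of at least 10 reads, and in all 4 every BRAFYAP library was above every YAP library, against 11.7% of all genes on scaled reads. Of the 4, 3 had an unadjusted p under 0.05 in limma, all but Prss2. Prss2 reached the minimum only through BRAFYAP 6, and Trbc1 and Trbc2 may share reads, so the 4 are not separate counts. Trbc2, one of the constant segments of the T cell receptor beta chain, ends 57.1 kb before Ephb6. It had 98, 65 and 32 estimated reads in YAP 1, 2 and 3 and 885, 2779 and 3990 in BRAFYAP 1, 2 and 6, and a log2 fold change on deposited values of 4.12 ± 0.49 (SE) with a limma adjusted p of 0.0468. Trbc1, the other segment, had 39, 13 and 12 reads in YAP and 91, 182 and 1020 in BRAFYAP. Its limma adjusted p on deposited values was 0.154. Trbc1 and Trbc2 are near-identical copies, so the division of reads between them is uncertain. Trpv6, an epithelial calcium channel gene, ends 114 bases beyond the end of Ephb6 on the other strand. It had 213, 112 and 363 reads in YAP and 1803, 1110 and 6366 in BRAFYAP. The log2 fold change of Trpv6 on deposited values was 1.94 ± 0.52 (SE), with a limma adjusted p of 0.115. The deposited values of Trbc1 and Trpv6 were below 1 in every YAP library. They reached the minimum mean of 1 only through BRAFYAP, so their place in that fit was not independent of their direction. Prss2, a trypsinogen gene, had 1614 reads in BRAFYAP 6 and at most 11 in any other library, and its groups were separated by less than 1 read. The other 8 neighbors, Gm10334, Prss1, Trbv31, Trpv5, Llcfc1, Kel, Gm37527 and Olfr459, had at most 4 reads in any library.

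**Figure D4:**
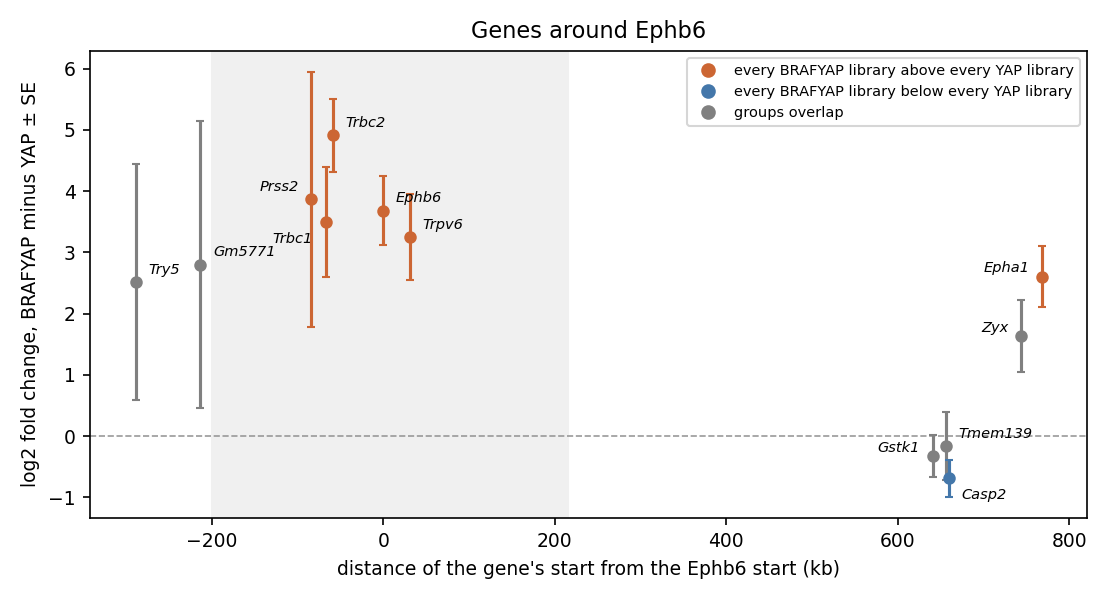
Log2 fold change, BRAFYAP minus YAP, of tested genes up to 1000 kb from Ephb6 against the distance of their start from its start in kb (log2 of scaled reads + 1, bars are SE), with the 200 kb window in gray. Trbc1, Trbc2, Ephb6 and Trpv6 lie between 3.25 and 4.91, and Gstk1, Tmem139 and Casp2 lie between -0.69 and -0.16.

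The rise of Ephb6 and Trbc2 was set beside T cell markers, since T cells also make Ephb6. The 10 markers summed to 22.7, 18.5 and 14.1 TPM in YAP 1, 2 and 3 and to 16.2, 14.8 and 31.8 TPM in BRAFYAP 1, 2 and 6, and in 0 of 10 was every BRAFYAP library above every YAP library. The defining markers Cd3d, Cd3e and Cd3g were at 0 to 0.066 TPM in BRAFYAP 1 and 2, in which Ephb6 was at 115 and 161 TPM, and at 0.675 to 1.17 TPM in BRAFYAP 6. In YAP they were at 0 to 0.909 TPM. Cd2, a T cell adhesion receptor gene and the larger part of the sum in BRAFYAP 1 and 2, was at 11.0 and 12.6 TPM in these, above YAP 1, 2 and 3 (9.54, 8.24 and 4.29 TPM), and at 6.24 TPM in BRAFYAP 6. Trac, the constant segment of the alpha chain, was at 2.64, 0.383 and 14.7 TPM in BRAFYAP 1, 2 and 6 and at 2.72 to 4.16 TPM in YAP. Without BRAFYAP 6 the log2 fold change of Ephb6 on deposited values was 2.70, with a limma adjusted p of 0.073. The part of T cells in the Ephb6 difference was not tested.

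**Figure D5:**
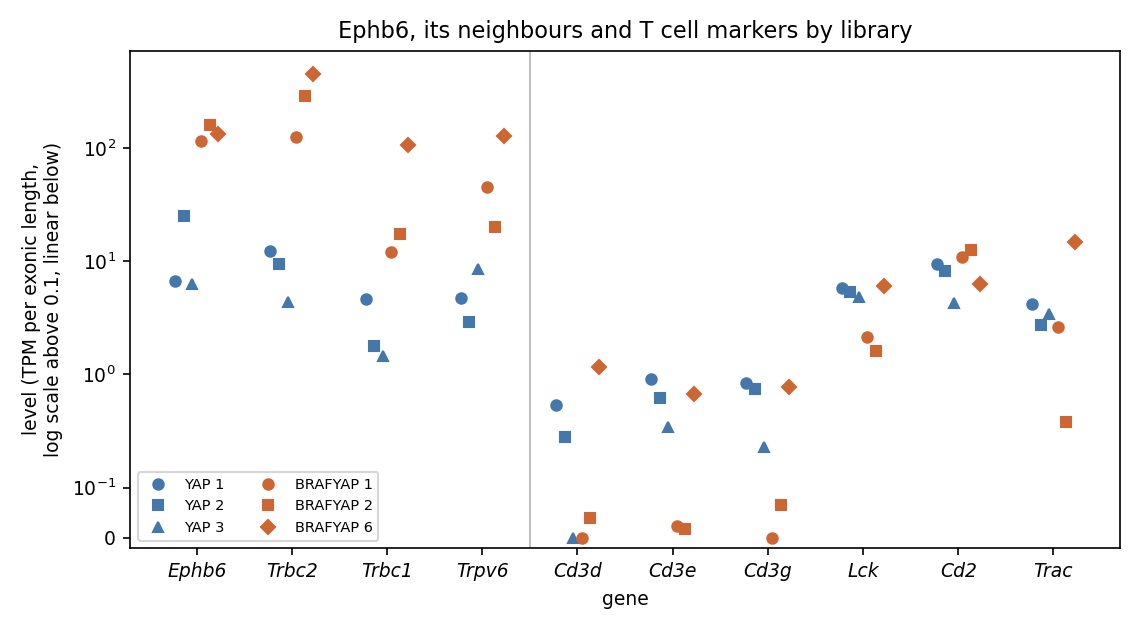
Level of Ephb6, its neighbors Trbc2, Trbc1 and Trpv6 (left of the line) and T cell markers (right) in each library, in TPM per exonic length, on a scale that is logarithmic above 0.1 and linear below. Ephb6 and Trbc2 are above YAP in all 3 BRAFYAP libraries, and Cd3d, Cd3e and Cd3g are at 0.066 TPM or less in BRAFYAP 1 and 2, while Cd2 is at 11.0 and 12.6 TPM in these 2, above every YAP library.

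The genes whose pattern over the 6 libraries was most like that of Ephb6 were Etv5 and Prpsap1 (both Pearson r = 0.996) and Rragc (r = 0.993), among 7318 genes on log2(deposited value + 1). This is a description over 6 libraries, which fall into the same 2 groups for every gene. Etv5 and Prpsap1 were below 1 in every YAP library, so they reached the minimum mean of 1 only through BRAFYAP. Their place among the genes compared was therefore not independent of this pattern. Etv5, a transcription factor gene, had deposited values of 0.127, 0.588 and 0.244 in YAP 1, 2 and 3 and of 1.59, 1.98 and 1.87 in BRAFYAP 1, 2 and 6, with YAP 2 the highest of its group as for Ephb6.

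Genes that cut, dephosphorylate or turn over Eph receptors and ephrins were examined with the same fit. Of 8, 0 were called by limma and 0 had an unadjusted p under 0.05, and the median log2 fold change on scaled reads was 0.20. The smallest p values were those of the phosphatase gene Ptpn1 (1.09 ± 0.68, SE, adjusted p = 0.399), the ubiquitin ligase gene Cblb (-0.46 ± 0.31, adjusted p = 0.429) and the membrane protease gene Mmp14 (0.68 ± 0.46, adjusted p = 0.44), all from limma. Adam10, the protease known to cut ephrins, was at 17.4, 66.9 and 23.3 TPM in YAP and at 32.7, 35.8 and 70.4 TPM in BRAFYAP. Of 7 binding partners of ephrin-B, 5 were tested, 0 were called and 0 had an unadjusted p under 0.05 in limma. Those with the smallest p in limma were Dvl2 (0.44 ± 0.29, SE, adjusted p = 0.43), Rgs3 (-0.44 ± 0.52, adjusted p = 0.652) and Sdcbp (-0.17 ± 0.34, adjusted p = 0.803). Sdcbp, which encodes the PDZ protein syntenin, was the most abundant, at 271 to 405 TPM in YAP and 226 to 407 TPM in BRAFYAP.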

How the data were processed

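Expression was measured by RNA-seq in 3 YAP and 3 BRAFYAP libraries of sorted Kate-positive thyroid tumor cells, after amplification with a SMART-Seq kit. Groups were taken from the sample titles, and the labels were followed where the study text differs from them on the start of dox and on pooling. The sources used here name bcl2fastq 2.2, STAR 2.6.1d and Partek in the submitters' processing notes, with build mm10. The authors deposited a table described as TPM with 0.0001 added, for 35027 genes, and 0 columns lacked a sample. Its values summed to 181218 in each library, so deposited values and the recalculated TPM differ in their total as well as in the length used. Low values (under 200 reads) multiplied by the genomic span, introns included, came within 0.05 of whole multiples of one step per library in 71.7 to 76.1% of cases, against 22.4 to 25.1% with the exonic length (GENCODE M21), so the span was the length behind the deposited TPM. Genes with long introns therefore have low values. Estimated reads are (value - 0.0001) × span / step, for 34645 genes at one locus; scaled reads return these to the authors' scaling between libraries. TPM per exonic length was recalculated from the reads. Reads may be shared by overlapping genes. Without molecular identifiers, PCR copies count as reads, and depth describes counting error only.

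The 2 groups were tested against each other in limma 3.58.1 under R 4.3.3 (lmFit, eBayes with trend), two-sided, with Benjamini-Hochberg adjustment. One fit used log2(value + 1) and kept genes whose mean value reached 1, and another used log2(scaled reads + 1) and kept those whose mean reached 10 estimated reads. Fold changes on these scales understate those of low genes. TPM are not counts, and no count model was used. The fit was tested on simulated data. The labels give no batch and do not say that the libraries are from separate mice. In the study text each biological replicate was a single tumor from 1 mouse, whereas the labels give pools for YAP. The p-values set the difference between groups against the spread between these libraries, pools in YAP and single tumors in BRAFYAP. Named genes are the members, list genes past the threshold or else with the 3 smallest p, neighbors within 200 kb of a called member, and the 3 genes most like it. 1 list of signaling genes is not reported here. Values of Adam10, Sdcbp and Efna4 were chosen after they were seen, as were the promoters printed. The members and lists were chosen with earlier results of these data known. Alternatives tried were another pseudocount, minimum, normalization, variance model and length, array weights (gene by gene), a replicate block, and leaving out each library. Promoters are from RefSeq, in which all 10 members were matched. Protein sequences were not used here.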

Additional observations from a re-analysis of the deposited data

How the results depend on the processing

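On deposited values the count of called members, 1 (Ephb6), was 0 with a pseudocount of 0.1, a minimum mean of 10 (1 member tested), no minimum, median-ratio rescaling, no variance trend and the replicate block, 4 with array weights (Efnb1, Epha2, Ephb4 and Ephb6), and 0 to 2 when a library was left out; it was 1 with quantile normalization, exonic-length TPM and a 2-fold minimum. Ephb4 was under the minimum without BRAFYAP 2. On scaled reads the count of 0 became 1 with quantile normalization (Ephb6), 4 with array weights (Efnb1, Epha1, Ephb4 and Ephb6), and 0 to 1 when a library was left out (1 without YAP 2, Ephb6). Array weights raised the calls over all genes to 1393 of 7319 on deposited values. Leaving out YAP 2 gave 465 of 7276. Quantile normalization gave 79 and exonic-length TPM 62 of 14768. The direction turned only in members without a call. Epha4 was 0.58 with array weights and 0.32 with the replicate block, and -1.11 to 0.56 when a library was left out. Ephb2 was 0.0083 with array weights and -2.33 to 0.056 when a library was left out; both upper ends were without BRAFYAP 6. Ephb3 was 0.10 with median-ratio rescaling, 0.052 with array weights, 0.33 with the replicate block and -0.17 to 0.19 when a library was left out. Efnb2 was -0.072 to 0.43 when a library was left out. Replicate numbers 1 and 2 occur in both groups. Deviations from the group means correlated at -0.05 for number 1 and 0.06 for number 2, against -0.05 to 0.09 between libraries of unlike number. With so few pairs this cannot decide whether the numbers pair the libraries. With the replicate block Ephb6 was 2.50 with a limma adjusted p of 0.237. Median-ratio rescaling moved the median of all genes from -0.06 to 0.04 on deposited values and from -0.11 to 0.01 on scaled reads, and the directions of Epha1, Ephb4, Ephb6 and Efnb1 held. Their cause was not tested.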

Other observations

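Other families that guide cells by contact or by short-range ligands were examined with the same fit on scaled reads. Of 48 semaphorin, plexin, neuropilin, netrin, Slit and Robo genes 40 were tested, and 0 were called by limma. At an unadjusted p under 0.05, 6 were higher in BRAFYAP (Sema3c, Sema4g, Nrp1, Ntn5, Slit2 and Robo3) and 4 were lower (Sema4d, Sema5a, Plxnd1 and Ntn1), where 9.71% of all genes tested were higher and 10.5% lower. Sema4g was at 0 to 0.0216 TPM in YAP and 0.0662 to 0.945 TPM in BRAFYAP, and Ntn5 at 0 to 0.330 and 1.03 to 16.4 TPM. The place of these 2 genes among those tested rested largely on BRAFYAP and was not independent of their direction. Sema3c, a secreted semaphorin, was at 2.20, 2.38 and 1.03 TPM in YAP 1, 2 and 3 and at 17.2, 18.5 and 19.0 TPM in BRAFYAP 1, 2 and 6, with a log2 fold change of 3.32 ± 0.41 (SE) and a limma adjusted p of 0.0546. Ntn1, the gene of netrin-1, was at 4.40, 2.11 and 1.40 TPM in YAP and at 0.425, 0.479 and 0.313 TPM in BRAFYAP (-2.56 ± 0.53, SE, limma adjusted p = 0.091). Sema4d, a membrane semaphorin also made by leukocytes, was at 46.8, 41.0 and 26.7 TPM in YAP and at 16.0, 12.2 and 6.51 TPM in BRAFYAP (-1.83 ± 0.42, SE, limma adjusted p = 0.103). Its groups separated in the same direction as the macrophage markers given above, and their part in it was not tested.

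BRAFYAP 6 held reads of trypsinogen genes upstream of Ephb6 that were nearly absent elsewhere. Gm5771 had 382 estimated reads there and 0 in the other 5 libraries, and Try5 had 117 there and at most 1 in any other library. Both genes lie outside the 200 kb window and were chosen after their values were seen. These genes are near-identical copies, so the reads of each are uncertain.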
